A study of Mus musculus with 6 samples.

Results

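Serotonin receptors were examined in whole-brain RNA of mice in which HuR could be deleted in neurons. The genes were taken by name: Htr1a, Htr1b, Htr1d, Htr1f, Htr2a, Htr2c, Htr4, Htr5a, Htr6 and Htr7. Each was read by its probeset with the highest mean among those annotated with exactly 1 gene symbol. All 10 were found among the 22180 genes with such a probeset, and all 10 were bright enough to enter the test of 16635 genes. The probesets were chosen by gene name and overall brightness, not by the difference between groups. The list of genes itself was drawn up with earlier results of these data known. HuR, encoded by Elavl1, is an RNA-binding protein, and the question was how its loss from neurons alters brain transcripts in a model that the series title links to motor neuron disease. The controls were 3 samples of the genotype Thy1Cre-ERT2-EYFPHuRf/+, called control here, and the knockouts were 3 samples of the genotype Thy1Cre-ERT2-EYFPHuRf/f. Both groups carried a Cre recombinase switched on by tamoxifen and linked to a yellow fluorescent protein, driven by the neuronal Thy1 promoter, both received tamoxifen at 10 and 11 weeks of age, and mice of both were 91 days old when the brain was taken. Controls thus had a floxed allele and received the drug as well, and cells in which Thy1 does not drive Cre keep Elavl1 in either group. The labels call the mice of either sex and give no sex for a single sample.

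Serotonin is made in the brain by neurons of the raphe nuclei, whose axons reach nearly every region, and it is sensed there by a family of receptors. All 10 genes encode receptors that act through G proteins. Htr1a, Htr1b, Htr1d, Htr1f and Htr5a couple to inhibitory G proteins that lower cyclic AMP, Htr2a and Htr2c couple to Gq and phospholipase C, and Htr4, Htr6 and Htr7 couple to Gs and raise cyclic AMP. Htr1a and the presynaptic Htr1b and Htr1d also serve as autoreceptors that restrain serotonergic neurons and their terminals. Because whole brain was sampled, a lower value can mean fewer cells of a type or less RNA per cell, and these cannot be told apart.

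Signals were microarray intensities from 6 arrays with medians of 13.4 to 14.6, and a log2 level below is log2(intensity + 1) after quantile normalization. Elavl1 itself had an intensity of 310, 242 and 376 in the controls and 295, 289 and 315 in the knockouts, so this probeset did not separate the groups, and its position relative to the floxed stretch was not determined. Control 3 and knockout 3 differed from the remaining 4 arrays. The X-inactivation transcript Xist had an intensity of 208 on control 3 and 212 on knockout 3, against 4.97 to 5.99 elsewhere. Both of them lay above the other 4 arrays in 23.4% of all genes tested and below them in 20.6%. The mean log2 level of 6 endothelial markers was 5.95 and 6.14 on these arrays against 4.41 to 4.95 on the others, and all 6 genes, Cldn5 and Abcb1a among them, had this order. For 6 cerebellar markers it was 7.92 and 7.98 against 6.67 to 7.06, with 5 genes in this order, and for 8 pan-neuronal markers 10.29 and 10.29 against 9.77 to 9.93, with 7. For 7 thalamic markers it was 7.19 and 7.16 against 6.78 to 6.89, with 5 genes in this order. For 7 hippocampal markers it was 7.66 and 7.57 against 7.26 to 7.45, with 3. Other lists were lower on control 3 and knockout 3. The 6 microglia markers averaged 6.32 and 6.23 against 6.65 to 6.69, with 5 genes below on both. The 7 astrocyte markers averaged 8.74 and 8.80 against 8.97 to 9.17, also with 5. The 7 hypothalamic markers averaged 5.51 and 5.45 against 5.87 to 5.97, but only 3 genes had this order.

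After Benjamini-Hochberg adjustment in limma at a threshold of 0.05, 0 of the 10 receptor genes were called, beside 0 of 16635 genes tested (0%). At an unadjusted p under 0.05, limma had 1 receptor gene, Htr6, and 282 of all genes, or 1.7% (0.932% higher and 0.763% lower in knockout). Treating arrays of the same number as pairs gave 2 receptor genes, Htr6 and Htr1d, and 806 genes or 4.85% (2.81% higher and 2.03% lower). The labels do not say that the numbers pair animals. Leaving out control 3 gave 574 genes, leaving out knockout 3 gave 466 and leaving out knockout 2 gave 164. The receptor count was 2 without control 1, again Htr6 and Htr1d. Knockout values were above control for 5 receptors and below for 5, where 54.8% of all genes lay above 0 and 45.2% below, and the median log2 fold change was 0.013 over the receptors and 0.013 over all genes. With arrays centred on their median 7 receptors lay above 0, and 68.6% of all genes did. The receptor median was 0.15 without control 3 and -0.11 without knockout 3. Without control 3 the high Xist level is in knockout alone, and without knockout 3 in control alone.

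Groups did not overlap for Htr6, which was higher in knockout, nor for Htr2c, which was lower, and 5.7% of all genes did not overlap (3.14% higher and 2.55% lower). A share of 24.9% of all genes had the same sign in each of the 3 numbered comparisons of knockout with control. Among the receptors this held for 3 of 10: Htr6, Htr1d and Htr2c.

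**Figure D1:**
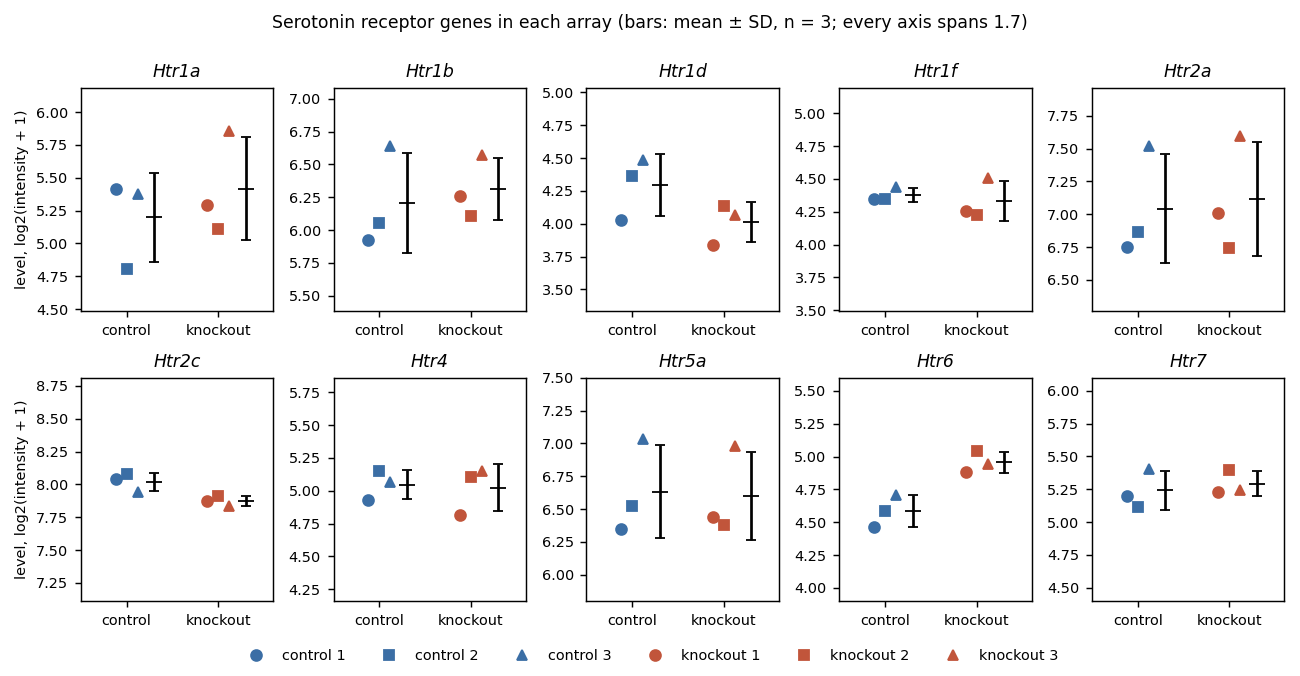
Level of each serotonin receptor gene as log2(intensity + 1) after quantile normalization, with control in blue, knockout in red, the marker shape giving the replicate number and the black bar the mean ± SD of 3 arrays. Every panel spans the same range. The 3 knockout arrays lie above the 3 control arrays for Htr6 and below them for Htr2c, while in Htr1b, Htr2a and Htr5a both arrays numbered 3 lie highest.

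The start regions of 4 genes are printed. Htr6, Htr1d and Htr2c had the same sign across the numbered arrays, as 24.9% of all genes did. Htr2a differed between the arrays numbered 3 and the rest. Sequences are from RefSeq on the build GRCm38.p6 and read 5′ to 3′ on the strand of the gene, ending at the base before the gene. The RefSeq promoter table matched 9 of the 10 members, and Htr4 did not match. Capitals mark matches on either strand to any of 6 motifs. The TATA box was searched as TATAAA and the box that binds NF-Y as CCAAT. The GC box was searched as GGGCGG and the cyclic AMP response element as TGACGTCA. The AP-1 site was searched as TGANTCA, where N is any base, and the E-box as CACGTG. Neighbouring GC boxes in Htr6 overlap by 1 base.
Htr6, chr4:139075571-139075820, minus strand: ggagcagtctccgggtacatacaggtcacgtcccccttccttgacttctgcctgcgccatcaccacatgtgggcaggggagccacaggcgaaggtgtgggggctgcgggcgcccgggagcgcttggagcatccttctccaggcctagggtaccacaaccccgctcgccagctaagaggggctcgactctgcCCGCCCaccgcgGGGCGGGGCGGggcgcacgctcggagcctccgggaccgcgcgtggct
Htr1d, chr4:136423274-136423521, plus strand: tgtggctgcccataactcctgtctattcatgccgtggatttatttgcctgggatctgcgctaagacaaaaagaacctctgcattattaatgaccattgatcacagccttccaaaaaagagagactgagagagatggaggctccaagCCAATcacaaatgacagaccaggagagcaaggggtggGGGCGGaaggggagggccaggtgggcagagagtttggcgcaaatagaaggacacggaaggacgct
Htr2c, chrX:146962263-146962463, plus strand: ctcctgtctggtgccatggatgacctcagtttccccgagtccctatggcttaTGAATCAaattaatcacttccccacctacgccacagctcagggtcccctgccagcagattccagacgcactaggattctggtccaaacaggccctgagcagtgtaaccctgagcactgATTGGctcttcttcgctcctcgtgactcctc
Htr2a, chr14:74640624-74640873, plus strand: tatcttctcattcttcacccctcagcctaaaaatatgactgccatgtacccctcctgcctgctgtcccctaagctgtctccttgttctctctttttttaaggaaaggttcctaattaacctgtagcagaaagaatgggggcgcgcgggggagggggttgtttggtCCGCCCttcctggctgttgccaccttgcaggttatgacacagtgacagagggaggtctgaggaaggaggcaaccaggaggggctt

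Motifs were searched in the 250 bases before the outermost start of the promoter table. For Htr1d and Htr2c that start lies inside the RefSeq gene, so the last 2 and 49 bases of their windows are searched but not printed, and the windows of Htr5a and Htr7 reach further into the gene. In these windows, the Htr6 region held 3 GC boxes, at 59, 47 and 42 bases before the start, and the Htr1a, Htr1d and Htr2a regions held 1 each. Of the 9 members searched, 4 had a GC box and 3, Htr1b, Htr1d and Htr2c, a CCAAT box. Of 32851 promoter windows of the same length outside chromosome 18, 32.7% held a GC box and 33.8% a CCAAT box. An AP-1 site was found in Htr2c alone among the 9, where 6.75% of all windows hold one. No member window had the letters of the TATA box (12.4% of all windows), the cyclic AMP response element (1.55%) or the E-box (6.02%). The 9 windows ran from 4 CpG dinucleotides in Htr2a to 41 in Htr7, with 23 in Htr6, beside a median of 6 over all windows. As many as in Htr7 occur in 1.09% of windows and as many as in Htr6 in 13.3%. These matches describe the letters and say nothing of binding.

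Among the Gs-coupled receptors, Htr6 had the largest difference of the family. Htr6 is a receptor of striatal, cortical and hippocampal neurons that sits largely on their primary cilia. Its intensity was 20.8, 23.9 and 25.03 in the controls and 28.5, 31.8 and 29.8 in the knockouts. Every knockout array lay above every control array. Controls averaged 4.58 ± 0.122 and knockouts 4.96 ± 0.081 on the log2 scale (SD, n = 3 each), a 1.29-fold difference with a 95% confidence interval of 1.08 to 1.55. The log2 fold change of 0.37 (SE 0.11) had an unadjusted p of 0.0119 and an adjusted p of 1.00 in limma, and pairs gave 0.00634 and 0.984. A two-sided exact permutation test gave 0.1, the smallest p that 20 assignments of 3 against 3 arrays allow. In the arrays numbered 1, 2 and 3, knockout minus control was 0.42, 0.45 and 0.24. Leaving out any 1 array gave 0.31 to 0.43, with unadjusted p values from 0.00984 to 0.0473, and without both arrays numbered 3 the value was 0.43. The gene lies on chromosome 4 at 139059706 to 139075570.

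Marker lists were set beside Htr6 because its cells are unevenly spread over the brain. Striatal markers had log2 fold changes of -0.17 to 0.016, with 1 of 6 above 0. Their mean log2 level was 8.04 to 8.10 in the controls and 7.96 to 8.07 in the knockouts. Of these, 1 gene, Rgs9, did not overlap between groups and was lower in knockout, at -0.09 (SE 0.10). Cortical excitatory markers ran from -0.14 to 0.34, with 4 of 7 above 0 and a mean level of 7.33 to 7.52 in control and 7.30 to 7.53 in knockout brain. Fezf2, a factor of deep-layer cortical neurons, was highest at 0.34 (SE 0.15) and did not overlap between groups. Neurod6 was the lowest of that list at -0.14 (SE 0.18), with overlap. Hippocampal markers ran from -0.07 to 0.16, with 4 of 7 above 0 and a mean level of 7.26 to 7.66 in control and 7.35 to 7.57 in knockout brain. Of 7 oligodendrocyte markers, 6 lay below 0 and 4 (Opalin, Cldn11, Mal and Mog) did not overlap between groups, where 45.2% of all genes lay below 0 and 2.55% did not overlap and were lower. The list had a mean level of 8.77 to 9.06 in control and 8.71 to 8.81 in knockout brain. What part any of these lists has in the Htr6 difference was not tested.

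Htr4 and Htr7, the other Gs-coupled receptors, had values near 0. Htr4, which is found in the basal ganglia and hippocampus, had an intensity of 29.1, 34.6 and 32.5 in control and 27.2, 33.2 and 34.8 in knockout brain. The ranges overlapped, at a log2 fold change of -0.02 (SE 0.13) that turned to 0.018 under centring on the array median. The interval ran from 0.798-fold to 1.21-fold. Htr7, a receptor of thalamus, hypothalamus and hippocampus with a part in circadian timing, had an intensity of 35.8, 33.9 and 41.5 in control and 36.4, 41.3 and 37.1 in knockout brain. Its log2 fold change was 0.05 (SE 0.12), with an interval of 0.853-fold to 1.26-fold.

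Htr2c, one of the Gq-coupled receptors, was the other gene without overlap. It is the serotonin receptor of choroid plexus epithelium and of many neurons, and its transcript is edited by adenosine deaminases. Intensities were 263, 255 and 250 in the controls and 231, 240 and 237 in the knockouts. All 3 knockout arrays lay below all 3 controls, though by a narrow margin, and centring each array on its median ended this order. Controls averaged 8.02 ± 0.07 and knockouts 7.87 ± 0.038 on the log2 scale (SD, n = 3 each), a log2 fold change of -0.14 (SE 0.10) or 0.905-fold, with an interval from 0.770-fold to 1.06-fold. The limma p was 0.19 unadjusted and 1.00 adjusted, and the exact permutation p was 0.1. The value was -0.08 with arrays centred on their median, -0.11 to -0.18 on leaving out any 1 array, and -0.16 without both arrays numbered 3.

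Choroid plexus markers were set beside Htr2c. Values were above 0 for 6 of 9 measured (median 0.027), and the list was highest in knockout 2 and lowest in control 2. Ttr, the transthyretin gene that choroid plexus transcribes at a very high level, averaged 12.37 ± 0.076 in the controls and 12.53 ± 0.155 in the knockouts on the log2 scale (SD, n = 3 each). Folr1, the folate receptor of that epithelium, differed by 0.19 (SE 0.13) on that scale. Of the 3 markers below 0, Tmem72 was at -0.10 (SE 0.12). Cldn2, under the brightness limit, was at -0.12 (SE 0.14). The list mean was 5.73 to 5.83 in control and 5.76 to 5.93 in knockout brain, and its part in the Htr2c difference was not tested.

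The Htr2c gene spans 234814 bases of chromosome X, from 146962464 to 147197277, and 7 microRNA genes lie within it on the same strand. The array has 1-symbol probesets for 5 of them, and 3 were bright enough to be tested. These are the mature sequences of the 3, from RefSeq on GRCm38.p6, with the seed (bases 2 to 8) in capitals. The 11 mature sequences of the 7 genes have 11 different seeds.
mmu-miR-764-5p: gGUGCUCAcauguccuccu
mmu-miR-764-3p: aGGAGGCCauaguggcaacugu
mmu-miR-1912-3p: cACAGAACaugcagugagaacu
mmu-miR-1298-5p: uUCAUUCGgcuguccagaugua
mmu-miR-1298-3p: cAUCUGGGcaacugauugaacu

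Mir764 had an intensity of 16.3, 14.8 and 13.3 in the controls and 15.04, 11.6 and 10.1 in the knockouts. Its groups overlapped, at a log2 fold change of -0.22 (SE 0.16), and knockout was below control in each numbered comparison (-0.13, -0.23 and -0.31). Mir1912 and Mir1298 had log2 fold changes of -0.14 (SE 0.21) and -0.14 (SE 0.12). The unadjusted p values of the 3 in limma were 0.192, 0.516 and 0.268. Mir1264 and Mir448, at -0.01 (SE 0.24) and 0.11 (SE 0.10), were under the brightness limit of 3.28 on the log2 scale. The Mir764 intensities lay around the array medians of 13.4 to 14.6. Whether these probesets read mature microRNAs was not determined.

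Htr2a, the cortical Gq-coupled receptor through which psychedelic drugs act, varied more between arrays of a group than between groups. Its intensity was 108, 108 and 185 in the controls and 128, 106 and 199 in the knockouts. The arrays numbered 3 were the high ones in both groups, and the groups overlapped. Controls averaged 7.04 ± 0.414 and knockouts 7.12 ± 0.434 on the log2 scale (SD, n = 3 each), a log2 fold change of 0.07 (SE 0.27), with an interval of 0.680-fold to 1.63-fold. Pairing narrowed the standard error to 0.10 and left an unadjusted p of 0.511 in limma. Without both arrays numbered 3 the value was 0.071.

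Htr5a and Htr1b, both coupled to inhibitory G proteins, also had both arrays numbered 3 highest. Htr5a, a receptor of cortical and hippocampal neurons, had an intensity of 80.7, 86.1 and 132 in the controls and 85.3, 82.9 and 130 in the knockouts. The arrays numbered 3 averaged 0.59 more on the log2 scale than the rest, while knockout minus control was -0.03 (SE 0.23) and turned to 0.035 with arrays centred on their median. Htr1b, the presynaptic receptor that limits transmitter release, had 59.9, 62.5 and 101 in the controls and 75.5, 68.0 and 97.4 in the knockouts. Its log2 fold change was 0.11 (SE 0.21), and the arrays numbered 3 averaged 0.52 more than the rest. For Htr2a that difference was 0.71. Both arrays numbered 3 lay above the other 4 in Htr1b, Htr1f, Htr2a and Htr5a, 4 of the 10 genes, beside 23.4% of all genes. What sets these arrays apart was not tested. Xist and the endothelial, cerebellar, thalamic, hippocampal and pan-neuronal marker levels given above were higher on them. The microglia, astrocyte and hypothalamic levels were lower.

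Another probeset carries the symbols of both Htr1b and the overlapping long noncoding gene D430036J16Rik, and which of them it reads was not determined. That probeset had 46.0, 36.7 and 43.8 in the controls and 46.1, 44.1 and 43.3 in the knockouts. Here the arrays numbered 3 were not the high ones, so the probesets disagree on that order. Its log2 fold change of 0.08 had the sign of the first, with an exact permutation p of 0.6.

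**Figure D2:**
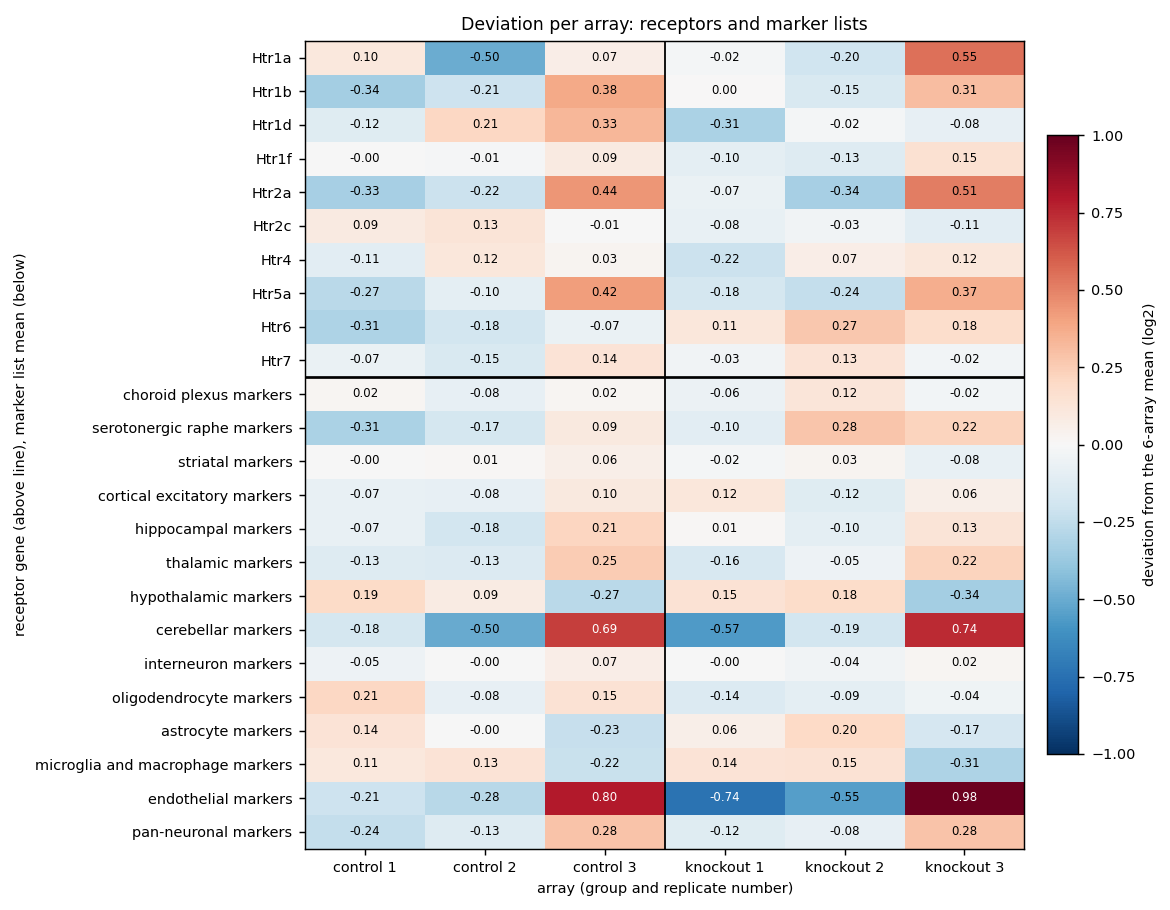
Deviation of each array from the mean of the 6 arrays, in log2 units, for the 10 receptor genes (upper rows) and the mean of each marker list (lower rows), with control arrays left of the vertical line and knockout arrays right of it. Red is above and blue below the mean. Htr1b, Htr2a and Htr5a are red on control 3 and knockout 3, as are the endothelial, cerebellar and pan-neuronal lists, and Htr6 is blue on every control and red on every knockout.

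Htr1a, the inhibitory autoreceptor of raphe neurons that is also abundant on hippocampal and septal neurons, was spread widely within both groups. Its intensity was 41.6, 27.7 and 40.6 in control and 37.97, 33.3 and 58.3 in knockout brain. Control 2 was the lowest array and knockout 3 the highest, and the groups overlapped. The log2 fold change was 0.22 (SE 0.24), with an interval of 0.793-fold to 1.71-fold. It was -0.000355 without knockout 3, 0.024 without control 2 and 0.375 without knockout 2.

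Htr1d, a presynaptic receptor related to Htr1b and a target of the triptan migraine drugs, had the lowest fold of the family. Its intensity was 15.03, 20.4 and 21.4 in the controls and 13.2, 16.4 and 15.3 in the knockouts. The 2 highest arrays were controls, but control 1 lay below knockouts 2 and 3. Controls averaged 4.29 ± 0.236 and knockouts 4.01 ± 0.155 on the log2 scale (SD, n = 3 each), a log2 fold change of -0.28 (SE 0.15) or 0.824-fold, with an interval of 0.645-fold to 1.05-fold. Knockout minus control was -0.19, -0.23 and -0.42 in the arrays numbered 1, 2 and 3. The unadjusted p in limma was 0.105, and 0.0222 with pairs (adjusted 0.984). The exact permutation p was 0.3. Leaving out any 1 array gave -0.18 to -0.41, and the unadjusted p was 0.0243 without control 1. Its intensities were close to the array medians of 13.4 to 14.6, where the pseudocount of 1 makes a difference between groups look smaller than it is.

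Htr1f, likewise a triptan target, had an intensity of 19.1, 20.2 and 20.7 in control and 18.1, 17.6 and 21.4 in knockout brain. The groups overlapped, at a log2 fold change of -0.05 (SE 0.12) with an interval of 0.801-fold to 1.17-fold.

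**Figure D3:**
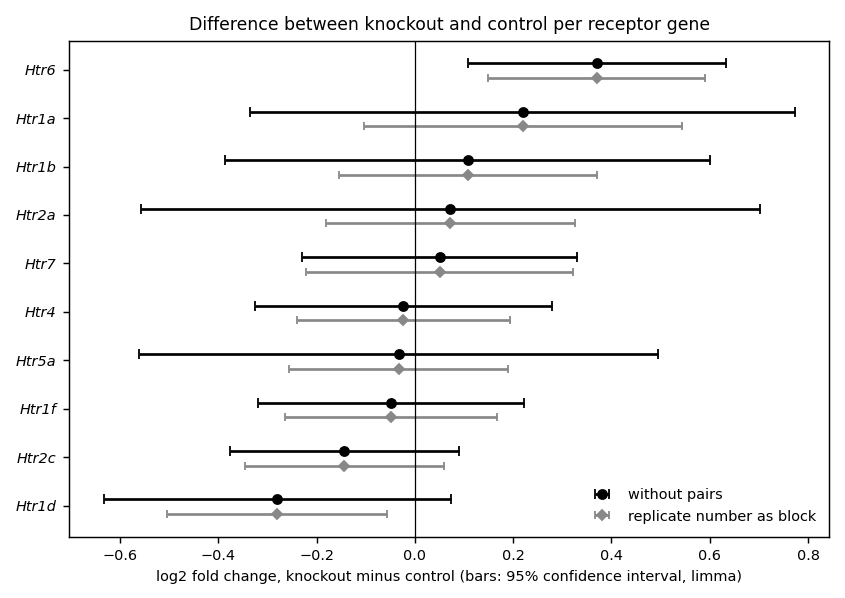
Log2 fold change of knockout minus control for each receptor gene, with 95% confidence intervals from limma, without pairs (black circles) and with the replicate number as a block (grey diamonds). The interval lies above 0 for Htr6 in either fit and below 0 for Htr1d with the block, and the intervals of Htr1a, Htr1b, Htr2a and Htr5a are wide without it.

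**Figure D4:**
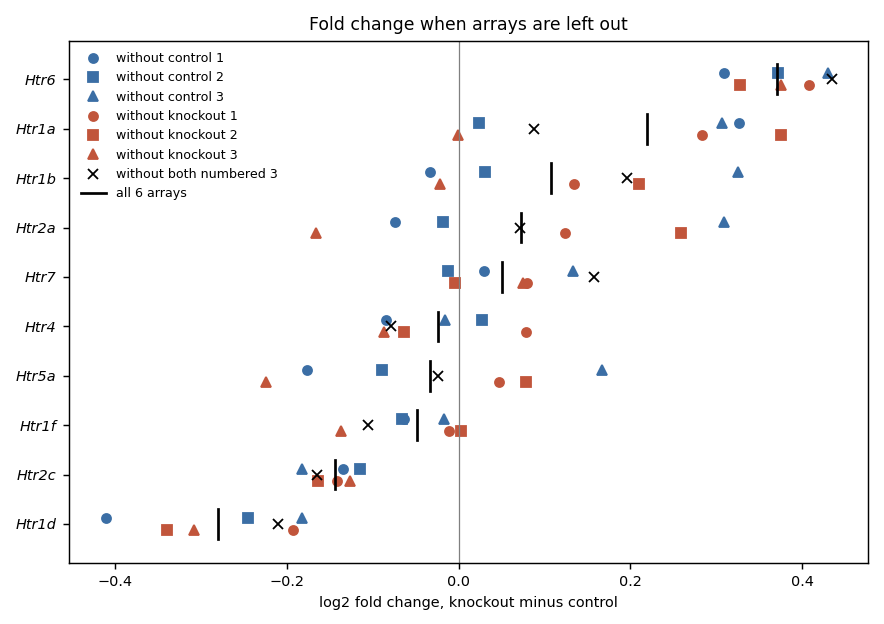
Log2 fold change of each receptor gene with all 6 arrays (bar), without each array in turn (coloured markers) and without both arrays numbered 3 (cross). Htr6 stays above 0 and Htr1d and Htr2c below 0 in every case drawn, and the other 7 genes take both signs.

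By coupling class, 2 of 5 receptors of inhibitory G proteins, 1 of 2 Gq receptors and 2 of 3 Gs receptors had values above 0, with medians of -0.03, -0.04 and 0.05, beside 0.013 over all genes. Under centring on the array median, Htr5a and Htr4 moved to values above 0, which gives 3 of 5 and 3 of 3. Htr6 and Htr1d, whose differences were largest in either direction, belong to classes with opposite action on cyclic AMP.

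The remaining measured serotonin receptors are outside the 10. Htr3a and Htr3b encode subunits of the serotonin-gated ion channel. Htr3a had an intensity of 34.9, 41.8 and 35.0 in control and 36.6, 43.6 and 45.3 in knockout brain, a log2 fold change of 0.15 (SE 0.13). Htr3b had a value of -0.11 (SE 0.16). Htr5b, the rodent relative of Htr5a, was at 0.18 (SE 0.15), and Htr2b, a receptor of heart valves and meninges, at 0.16 (SE 0.11) but under the brightness limit. Groups overlapped in all 4, and none had an unadjusted p under 0.05 in limma, with or without pairs.

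Tph2 and Slc6a4, from the list of serotonin synthesis, transport and breakdown, had the largest values of the pathway. Of that list, values were above 0 for 6 of 9 measured (median 0.084). Tph2, the rate-limiting enzyme of brain serotonin synthesis, had an intensity of 23.7, 29.8 and 37.4 in the controls and 34.2, 71.9 and 59.8 in the knockouts. Its log2 fold change was 0.80 (SE 0.28), or 1.74-fold, with an interval of 1.11-fold to 2.72-fold. That was the highest value of all genes tested, though it did not pass the adjusted threshold. Knockout 1 lay below control 3, so the groups overlapped, and the unadjusted p in limma was 0.0219 (0.00233 with pairs, adjusted 0.984). Slc6a4, the serotonin transporter, had 23.9, 23.1 and 47.1 in control and 37.5, 46.0 and 58.1 in knockout brain. Its log2 fold change was 0.64 (SE 0.29), with an unadjusted p in limma of 0.0591 (0.00518 with pairs). Slc18a2, which loads monoamines into vesicles, differed by 0.30 (SE 0.27) on the log2 scale. At an unadjusted p under 0.05, 1 gene of the list was higher and 0 lower, and 2 were higher with pairs, where 0.932% and 2.81% of all genes were. The list median was -0.00055 without control 3. The raphe transcription factors Lmx1b and Gata3 were at -0.09 (SE 0.11) and -0.06 (SE 0.15). The mean log2 level of 5 raphe markers, Tph2 and Slc6a4 among them, was 4.58 to 4.98 in control and 4.79 to 5.17 in knockout brain, and its part in the receptor values was not tested. Htr1a, the autoreceptor of those neurons, was highest in knockout 3, and Tph2 in knockout 2.

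Downstream of the receptors the values were small. Of 12 G protein genes 8 lay above 0 (median 0.032). Gna14, a Gq-class subunit, averaged 3.63 ± 0.033 in the controls and 3.84 ± 0.061 in the knockouts on the log2 scale (SD, n = 3 each). Its groups did not overlap, and the unadjusted p in limma was 0.069 (0.0453 with pairs). Its intensity was 11.4, 12.2 and 11.0 in the controls and 13.9, 13.1 and 12.4 in the knockouts. These values are near the array medians of 13.4 to 14.6. Gnai2 and Gnai3, inhibitory subunits, were at -0.12 (SE 0.14) and 0.11 (SE 0.20). Of 17 effectors 11 lay above 0 (median 0.041), all between -0.10 and 0.10, and the smallest p values were those of the cyclic AMP sensor Rapgef3 at 0.10 (SE 0.10), the adenylyl cyclase Adcy2 at 0.07 (SE 0.10) and the phospholipase Plcb3 at 0.06 (SE 0.12). Without pairs or with them, 0 of the 17 effectors had an unadjusted p under 0.05.

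Receptor partners and regulators lay above 0 for 17 of 21 genes, with a median of 0.063, beside 54.8% of all genes above 0. Grk3, a kinase that marks active receptors for arrestin binding, averaged 7.24 ± 0.106 in the controls and 7.52 ± 0.071 in the knockouts on the log2 scale (SD, n = 3 each). Its groups did not overlap, and the unadjusted p in limma was 0.030 (adjusted 1.00). Grk5, a kinase of the same family, was at 0.26 (SE 0.15) and Cc2d1a, a repressor of the Htr1a gene, at 0.31 (SE 0.20). With pairs, 4 of the 21 had an unadjusted p under 0.05, all higher, where 2.81% of all genes did, and 0 passed the adjusted threshold.

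**Figure D5:**
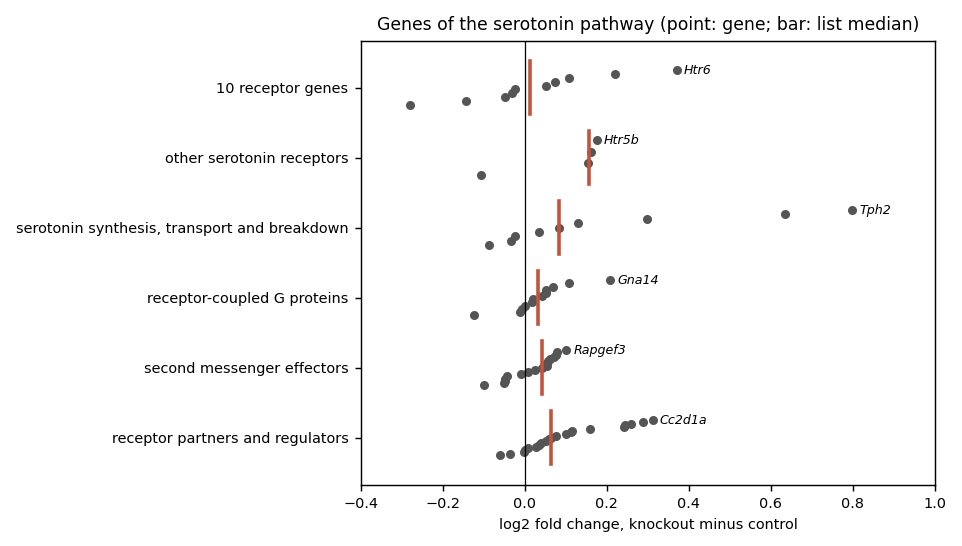
Log2 fold change of knockout minus control for every measured gene (points) of the 10 receptors and of 5 lists of the serotonin pathway, with the list median as a bar and the highest gene of each list named. Medians lie between 0.013 and 0.157, and Tph2 has the highest value drawn.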

How the data were processed

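Total brain RNA (150 ng, labelled with the Affymetrix WT Plus kit per the labels' protocols) was hybridised to 1 array per sample. The authors deposited linear intensities of 41340 probesets. Per the submitters' processing notes MAS5 was used. Version, background correction and scaling: not given in the sources used here.

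Intensities became log2(intensity + 1). Array medians differed by 0.119, above a limit of 0.1, so arrays were quantile normalized. The probe annotation gave 23521 probesets with 1 gene symbol, 1814 with several and 16005 unlisted. A brightness filter at the 25th percentile removed 5545 genes and kept 16635, of which 16523 matched the mouse RefSeq table (GRCm38.p6). Differences between the groups were tested in R 4.3.3 with limma 3.58.1 (lmFit, then eBayes; two-sided; Benjamini-Hochberg over all genes tested), and single genes also by an exact permutation test. The procedure was tested on data simulated with independent noise per array, without the shared difference of the arrays numbered 3. Figures used matplotlib 3.10.9 in Python 3.11.15. The number of arrays limits the precision: half-widths of the 95% interval had a median of 0.33, or 0.24 with pairs. Nothing in the labels names the animals, so a p value reflects the spread among these samples only, which may be technical.

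Deviations from group means correlated at 0.31, 0.37 and 0.75 for numbers 1, 2 and 3, above the limit of 0.1 for pairing. Control 1 correlated with knockout 2 at 0.40, so only number 3 is specific. Values with pairs use the number as a block.

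Members and lists were chosen with earlier results of these data known. The text names all members, all other serotonin receptors, the 3 genes of each pathway list with the smallest unadjusted p, the first gene and the gene with the smallest unadjusted p of marker lists that moved with a member, and Elavl1 and Xist. Ttr and Folr1 were picked in the same way from the choroid plexus list, which did not move with Htr2c. The microRNA genes within Htr2c, other marker genes and the probeset shared with D430036J16Rik were added after their values were seen. Alternatives covered normalization, brightness filter, pseudocount, probeset rule, variance model, array weights, pairing and left-out arrays. A planned comparison of the receptor proteins was not made.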

Additional observations from a re-analysis of the deposited data

How the results depend on the processing

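No receptor gene and no other gene passed the adjusted threshold in limma under any of 16 alternatives. Counts at an unadjusted p and counts above 0 were chosen as results after seeing the data: under the same alternatives 0 (the 50th percentile filter, with 7 receptors tested) to 2 receptor genes had an unadjusted p under 0.05, and 88 to 856 of all genes. Htr6, Htr1d and Htr2c kept their sign throughout, Htr6 from 0.24 (pseudocount of 16) to 0.43. Its unadjusted p was at most 0.0473 in the 15 alternatives that tested it. A brightness filter at the 50th percentile left out Htr6, Htr1d and Htr1f. With arrays centred on their median, Htr4 turned to 0.018 and Htr5a to 0.035. On leaving out 1 array at a time, the receptor median ran from -0.107 to 0.15, Htr1a from -0.000355 to 0.375, Htr1b from -0.034 to 0.326, Htr1f from -0.137 to 0.0027, Htr2a from -0.166 to 0.309, Htr4 from -0.087 to 0.079, Htr5a from -0.224 to 0.167 and Htr7 from -0.012 to 0.133. The cause was not tested. Of 157 values of single receptors under the alternatives, 141 kept their sign and 16 turned. With the replicate number as a block (replicate block), no adjusted call changed, and Htr1d passed the unadjusted threshold at 0.0222. Of genes with an unadjusted p under 0.05, 55% were higher in knockout under quantile normalization, 42.1% without any scaling and 68.6% under centring. Htr1d, Gna14 and Mir764 lay close to the array medians, and Htr2b was under the brightness limit.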
